A study of Homo sapiens with 12 samples.

Results

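DHRS2 is 1 gene of the 58051 in the count tables of a study that silenced subunits of the prefoldin complex in HCT116, an established human colon carcinoma line. It was found by its Ensembl identifier, ENSG00000100867, in both count tables, and 10 of its annotated transcripts were found in the per-library transcript files. The gene lies on chromosome 14 of GRCh38, from 23630115 to 23645639 on the plus strand, and its 15525 bases overlap 0 other annotated genes. It was chosen by its measured level in these libraries, which was higher with one knockdown and lower with the other, so the differences between siRNAs are given below as a description, without a test.

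Cells received 1 of 3 small interfering RNAs (siRNAs) with Oligofectamine: siControl, siPFDN2 against the prefoldin subunit PFDN2, or siPFDN5 against the subunit PFDN5. After 24 h, serum was withdrawn for 48 h, and RNA was taken either at that point (before serum) or 90 min after serum was given back (after serum). This made 6 groups of 2 libraries from total RNA depleted of 18S ribosomal RNA and primed with random hexamers, so unspliced RNA is also measured. All groups share the transfection and the starvation, and each subunit was targeted with 1 siRNA sequence. Nothing states whether the 2 libraries of a group came from separate cultures, so p-values measure only the spread between these libraries, which may be technical.

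DHRS2, also called HEP27, is a member of the short-chain dehydrogenase/reductase family, which includes enzymes that reduce carbonyl groups with NADPH. The protein is found in mitochondria and in the nucleus, where it has been reported to bind the ubiquitin ligase MDM2 and so to stabilise p53. Its gene has been reported as a target of the transcription factor MYB, and it is known for strong induction by histone deacetylase (HDAC) inhibitors. Prefoldin is a chaperone complex that passes newly made actin and tubulin to the chaperonin TRiC.

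The 3 siRNAs are shown because every value below is a comparison between them. Each is given as its guide strand, the complement of the strand printed in the labels, with bases 2 to 8, the seed through which an siRNA can also pair with other RNAs, in capitals. For siPFDN2 the strand printed in the labels is added.
siControl guide strand: uCGAAGUAuuccgcguacg
siPFDN2 guide strand: uGUAUCGAucacuaggcug
siPFDN5 guide strand: aUCCUCAGcugucuucucu
siPFDN2 strand printed in the labels: cAGCCUAGugaucgauaca

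The printed strands of siPFDN2 and siPFDN5, 19 bases each, matched transcripts of their own target in full (1 transcript of PFDN2 and 11 of PFDN5), and transcripts of 0 other genes. In the main DHRS2 transcript, the seeds of the siControl and siPFDN2 guide strands had 0 matching sites. The seed of the siPFDN5 guide strand had 1, CTGAGGA at positions 23639328 to 23639334 in the coding part of exon 3. Such a match is common: 33.6% of 27608 genes hold one in their longest transcript. Written opposite the whole guide, with the seed match in capitals, the DHRS2 stretch at chr14:23639317-23639335 on the plus strand pairs at 12 of the 19 positions.
DHRS2 stretch opposite the siPFDN5 guide strand: cgtggggaaggCTGAGGAc
The printed strand of siPFDN2 has 2 seed matches (CTAGGCT) in the same transcript, 1 in the coding part at 23638914 to 23638920 and 1 in the 3′ untranslated region at 23645383 to 23645389, and 10.9% of the longest transcripts hold one. Whether any of these matches bears on the DHRS2 level was not tested.

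DHRS2 RNA was highest in the siPFDN2 libraries, intermediate in the siControl libraries and lowest in the siPFDN5 libraries, at both times. Levels are given as CPM, a gene's read count scaled to a common total by the TMM-scaled total of its library. TMM sets 1 factor per library so that most genes stay level between libraries. Counts cover the whole gene body, introns included, unless exons are named.

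Before serum, the siControl libraries held 836 and 796 DHRS2 counts, or 9.0 and 7.45 CPM. The siPFDN2 libraries held 1976 and 2836 counts, or 20.9 and 25.2 CPM. The siPFDN5 libraries held 234 and 255 counts, or 3.73 and 3.78 CPM. Both siPFDN2 libraries were above both siControl libraries, and both siPFDN5 libraries were below them, so no groups overlapped.

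After serum the order was the same and the groups lay closer together. The siControl libraries stood at 9.68 and 9.06 CPM (812 and 1220 counts). The siPFDN2 libraries stood at 13.4 and 18.8 CPM (807 and 1662 counts). Those labelled siPFDN5 after serum stood at 5.56 and 5.67 CPM (396 and 485 counts). Again no library of one siRNA reached the range of another.

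As group means, DHRS2 was 8.23 ± 1.09 CPM (SD, n = 2) with siControl, 23.03 ± 3.02 (SD, n = 2) with siPFDN2 and 3.75 ± 0.0349 (SD, n = 2) with siPFDN5 before serum. After serum the means were 9.37 ± 0.440 (SD, n = 2), 16.1 ± 3.84 (SD, n = 2) and 5.62 ± 0.0801 (SD, n = 2). The siPFDN2 mean was thus 2.80 times the siControl mean before serum and 1.72 times after it. The siPFDN5 mean was 45.6% of siControl before serum and 59.9% after it. Set directly against each other, siPFDN2 exceeded siPFDN5 by 6.14 times before serum and by 2.86 times after it.

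**Figure D1:**
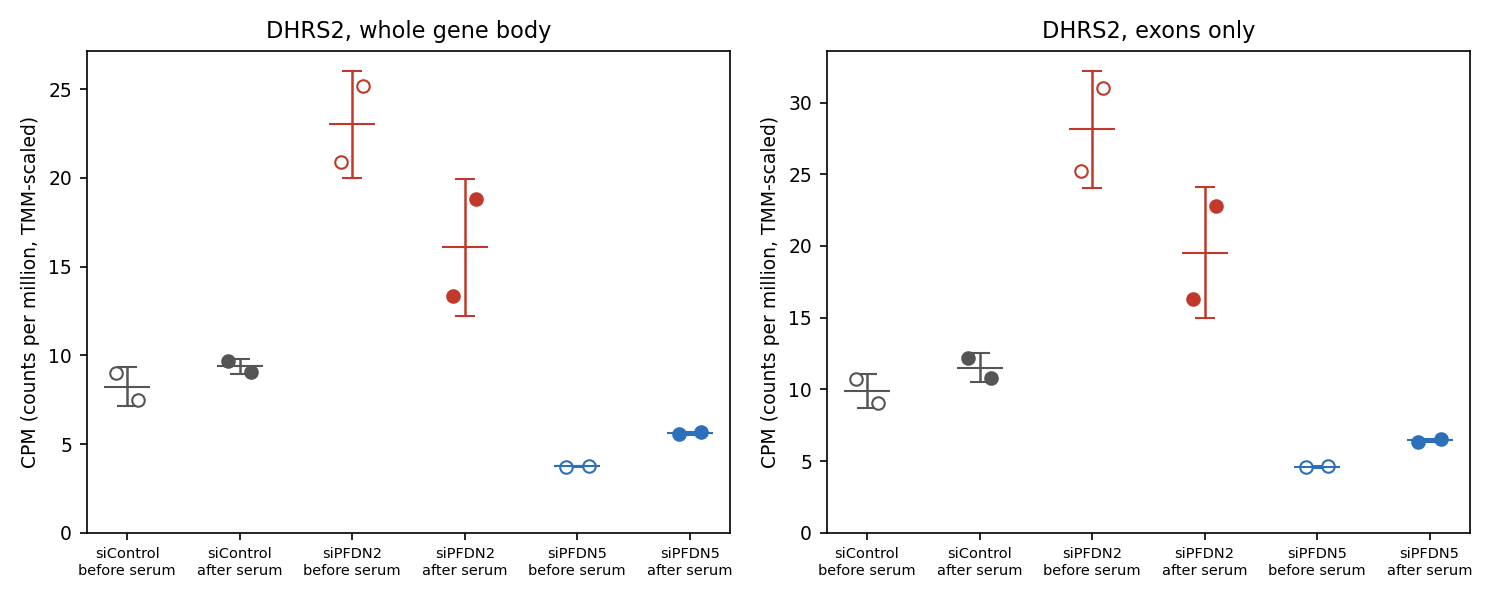
DHRS2 in CPM (y axis, starting at 0) for each of the 6 groups, over the whole gene body at left and over exons only at right; each circle is a library, open before serum and filled after it, and the horizontal line with its bar is the mean ± SD of 2 libraries. The siPFDN2 libraries lie highest (13.4 to 25.2 CPM over the gene body) and the siPFDN5 libraries lowest (3.73 to 5.67 CPM), with siControl between 7.45 and 9.68 CPM.

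Exon counts alone gave the same order. Before serum, exon CPM was 10.7 and 9.02 with siControl, 25.2 and 31 with siPFDN2, and 4.56 and 4.66 with siPFDN5. After serum it was 12.2 and 10.8, 16.3 and 22.8, and 6.36 and 6.52 in the same order of siRNAs. Per kilobase of exon, DHRS2 averaged 1.77 RPKM over the 12 libraries, against a median of 1.41 RPKM over the 27915 genes tested. This places it above 53% of them. The length used is that of all annotated DHRS2 exons, 7556 bases, while the main transcript has 1705, and the rank depends on that length.

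The fitted log2 fold changes from 1 model of all 12 libraries carry the same description. Of siPFDN2 against siControl, the log2 fold change was 1.49 (SE 0.19) before serum and 0.78 (SE 0.19) after it. Of siPFDN5 against siControl, it was -1.13 (SE 0.19) before serum and -0.74 (SE 0.19) after it. Both comparisons use the same siControl libraries. Of siPFDN5 against siPFDN2, it was -2.62 (SE 0.20) and -1.52 (SE 0.19).

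Among the 11625 genes at least as abundant as DHRS2, these values lay far out in most comparisons. DHRS2 was chosen for such differences, so its ranks are a description and no finding. The siPFDN2 change against siControl was the 8th highest before serum and the 11th highest after it. The siPFDN5 change against siControl was the 4th lowest before serum, but only the 306th lowest after it. Against siPFDN2, the siPFDN5 value was the lowest of the 11625 before serum (rank 1) and the 7th lowest after it.

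The knockdowns themselves were uneven. PFDN2 stood at 7.55 and 8.49 CPM with siPFDN2 against 11.5 and 11.2 with siControl before serum, and at 8.73 and 9.47 against 19.5 and 16.3 after it. PFDN5 stood at 41.0 and 44.2 CPM with siPFDN5 against 76.8 and 68.9 before serum. After serum it stood at 67.5 and 68.6 CPM against 67.9 and 74.0, so the libraries labelled siPFDN5 after serum did not carry a clearly lower PFDN5 level, and they are named by their label throughout. PFDN2 was higher with siPFDN5 (21.8 and 21.1 CPM before serum, 23.1 and 28.7 after it) than with siControl. PFDN2 overlaps 1 other annotated gene, so its gene-body counts may include reads of that gene. DHRS2 was below siControl in all 4 siPFDN5 libraries, those with the lowered PFDN5 RNA level and those without it. Its siPFDN5 mean was 45.6% of siControl before serum and 59.9% after it. These libraries measure RNA and not protein, and a link between the PFDN5 and DHRS2 levels was not tested.

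Library totals over gene bodies ran from 59784425 to 136504590 counts. The libraries of siPFDN2 before serum disagreed most: the SD over genes of their log2 difference was 0.681, against 0.116 to 0.301 in the other groups. Replicate 2 of that group also followed GC content, with a rank correlation across genes of 0.815, against -0.463 to 0.124 in the other 11 libraries. DHRS2 has a GC content of 50.3%, close to the middle of the tested genes (57.4th percentile). Without that library the siPFDN2 change before serum was 1.35, and the siPFDN5 value against siPFDN2 was -2.48. The 6 epithelial markers (EPCAM, KRT8, KRT18, KRT19, CDH1, CLDN4) summed to between 1933 and 3157 CPM in every library. The 8 markers of blood, endothelial, stromal and liver cells summed to 5.66 to 19.7 CPM, with 0 counts of COL1A2 and CD3E in some libraries. Most of that sum was COL1A1 (4.14 to 17.4 CPM), and its part in the DHRS2 values was not tested. In bulk RNA, more cells with the RNA and more RNA per cell cannot be told apart.

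**Figure D2:**
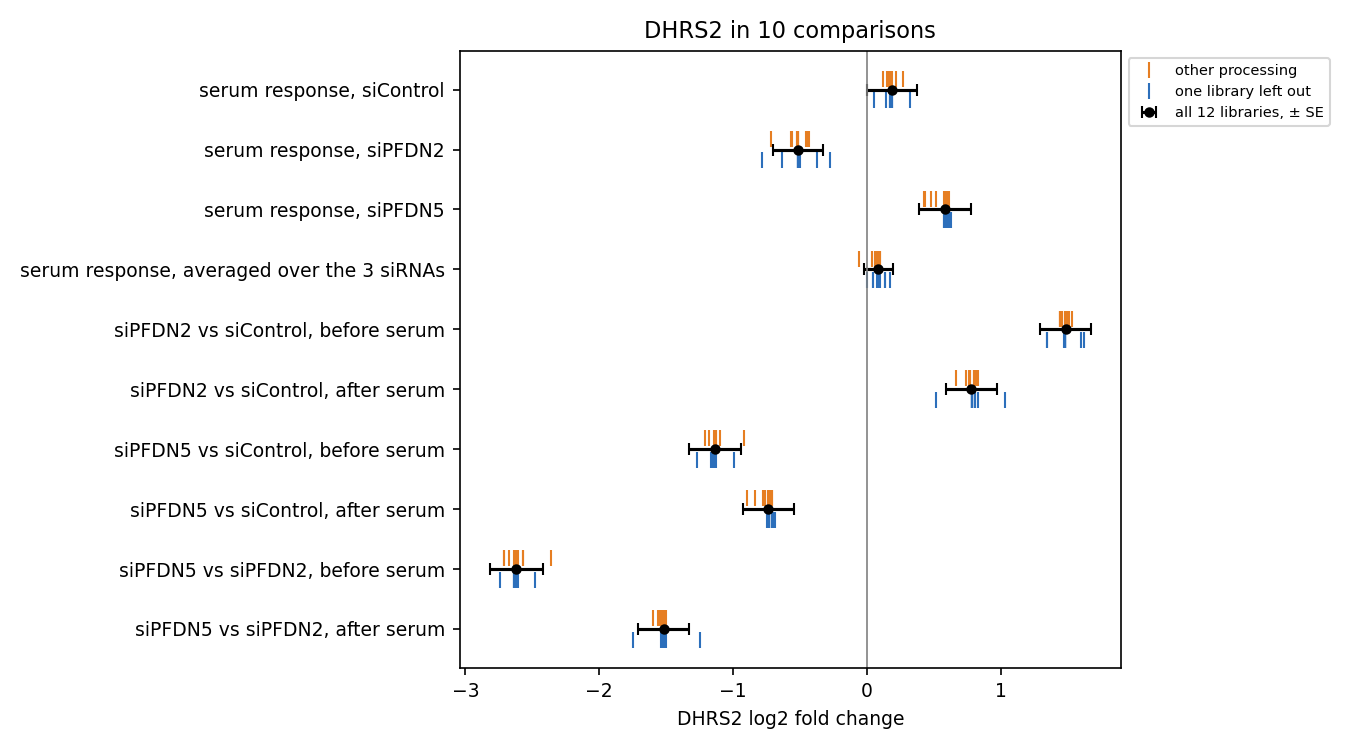
Log2 fold change of DHRS2 (x axis) in 10 comparisons; black points with bars are the fit to all 12 libraries ± SE, orange ticks are fits with another scaling, filter, count table, tool or model, and blue ticks are fits that leave out 1 library. The 6 comparisons between siRNAs stay on 1 side of 0 under every tick (siPFDN2 against siControl above 0, siPFDN5 below), while the serum response averaged over the siRNAs lies at 0.08 and crosses 0. The gene was chosen by the comparisons between siRNAs, so their constant side is only a description.

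The serum response of DHRS2 within each siRNA was not the contrast that chose the gene, and it was tested. It uses the same libraries as the choice, however, so these p-values are not free of that choice. A gene picked for extreme levels in some libraries can differ between times through the picking alone. The p-values therefore cannot settle whether DHRS2 responds to serum. Genes were called with edgeR's quasi-likelihood test at a Benjamini-Hochberg adjusted p under 0.05 over the 27915 genes. DHRS2 passed in none of the 4 serum comparisons. In each siRNA the libraries before and after serum did not overlap. With 2 libraries a side such separation is easily reached, and the share of all genes with it is not given here. The direction differed between siRNAs: the mean after serum was 1.14 times the mean before it with siControl, 69.8% of it with siPFDN2, and 1.5 times it with siPFDN5.

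With siControl the log2 fold change was 0.19 (SE 0.19; edgeR adjusted p = 0.813). With siPFDN2 it was -0.52 (SE 0.19; edgeR adjusted p = 0.121), and with siPFDN5 it was 0.58 (SE 0.19; edgeR adjusted p = 0.0728). Averaged over the 3 siRNAs it was 0.08 (SE 0.11; edgeR adjusted p = 0.618).

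Serum changed 2.87% of tested genes with siControl, 3.26% with siPFDN2, 12.2% with siPFDN5 and 14.9% on average by the same test, so DHRS2 was among the larger number without a call. By direction, 2.47% of genes rose and 0.394% fell with siControl, 2.06% rose and 1.2% fell with siPFDN2, 5.72% rose and 6.48% fell with siPFDN5, and 7.6% rose and 7.31% fell on average. The siPFDN5 value passed when either siPFDN2 library before serum was left out (0.59, edgeR adjusted p = 0.0107 each way). The siPFDN2 value passed when replicate 1 of siPFDN2 before serum was left out (-0.63, edgeR adjusted p = 0.00641), which keeps only the replicate that follows GC content. Without that replicate 2 instead, it was -0.37 (edgeR adjusted p = 0.320). Each of these fits has 1 siPFDN2 library before serum, which is assumed to vary like the other groups. Over all 23 alternatives the adjusted p ran from 0.000673 to 0.296 for siPFDN5 and from 0.00641 to 0.523 for siPFDN2.

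As a description, the serum response with siPFDN2 was lower than that with siControl by a log2 difference of -0.70 (SE 0.26), and that with siPFDN5 was higher by 0.39 (SE 0.27). These differences are built from the comparisons between siRNAs that picked the gene, so no p is given. They restate that the siPFDN2 excess and the siPFDN5 deficit were both smaller after serum than before it.

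Nearly all DHRS2 reads fell in annotated exons. These are the exons of all its annotated transcripts, 7556 bases together, retained-intron transcripts included. An intron kept in such a transcript can thus count as exon, so the share does not separate spliced from unspliced RNA. The exonic share is the exon count as a percentage of the gene-body count, given with its 95% Wilson interval, which covers counting error only. Before serum it was 97.0% (95.6 to 98.0) and 98.5% (97.4 to 99.1) with siControl. It was 99.1% (98.6 to 99.4) and 98.4% (97.9 to 98.8) with siPFDN2, and 95.7% (92.3 to 97.7) and 98.0% (95.5 to 99.2) with siPFDN5. The siPFDN2 and siPFDN5 libraries overlap the siControl libraries here, unlike in the level itself.

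After serum the share was 97.8% in both siControl libraries, 99.1% and 99.6% with siPFDN2, and 98.7% and 98.8% with siPFDN5. The mean over siRNAs went from 97.8% before serum to 98.6% after it, a difference of 0.835 percentage points. An exact two-sided permutation of the serum labels within each siRNA gave p = 0.0833 over 216 arrangements, where the smallest p possible is 0.00926. Without replicate 1 or 2 of siPFDN2 before serum the difference was 0.948 points (exact permutation p = 0.0648) or 0.723 points (exact permutation p = 0.176). Without replicate 2 of siControl before serum it was 1.08 points (exact permutation p = 0.00926, the smallest the remaining 108 arrangements gave). Over 4285 genes that overlap no other gene and average at least 100 counts, the median exonic share by group was 93.3% to 96.6%, below the DHRS2 mean in each group.

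Reads outside all annotated exons were few. They numbered 5 to 45 per library, or 0.0702 to 0.399 CPM. Before serum they came to 0.190 and 0.399 CPM with siPFDN2, 0.269 and 0.112 CPM with siControl, and 0.159 and 0.0740 CPM with siPFDN5. The siPFDN2 and siControl libraries overlap in this intronic signal, and so do the siControl and siPFDN5 libraries. The siPFDN2 libraries both lay above the siPFDN5 libraries, the same direction as in the exon counts, and this was not tested.

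Most of the estimated transcript counts went to DHRS2-201 (ENST00000250383), a protein-coding transcript of 1705 bases in 9 exons from 23636335 to 23645639, whose coding part of 843 bases encodes 280 residues. Its share of all estimated DHRS2 counts was 83.9% and 84.2% with siControl before serum and 79.8% and 80.3% after it. With siPFDN2 it was 85.9% and 85.6% before serum and 82.2% and 86.8% after it. With siPFDN5 it was 74.6% and 46.2% before serum and 76.1% and 79.9% after it. Thus DHRS2-201 led in 11 of the 12 libraries with at least 74.6%, and the second siPFDN5 library before serum stood apart at 46.2%.

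In that library DHRS2-202 (ENST00000344777), another protein-coding transcript that ends at the same base, took 27.1%, on 84.9 estimated counts. The other siPFDN5 library before serum gave it about 0%, so the replicates disagree on this transcript. DHRS2-202 held 3.20% to 5.90% in the 4 siPFDN2 libraries and 0% in 3 of the 4 siControl libraries. In the siPFDN5 libraries after serum it held 11.6% and 2.94%, on 53.2 and 16.0 estimated counts. The main transcript's share was 4.12 percentage points higher after serum than before it (76.7% to 80.9%; exact permutation p = 0.787), and -0.615 points without replicate 2 of siPFDN5 before serum (exact permutation p = 0.713).

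The 3 transcripts with a retained intron (DHRS2-206, DHRS2-207 and DHRS2-208) together held 7.65% to 24.4%. Their share was 7.65% and 10.4% with siPFDN2 before serum, 15.4% and 14.3% with siControl, and 23.5% and 24.4% with siPFDN5. In estimated counts that was 162 and 315 with siPFDN2, 137 and 125 with siControl, and 64.3 and 76.6 with siPFDN5. After serum the shares were 13% and 8.87%, 19.9% and 17.5%, and 12.2% and 16.4% in the same order, and the 3 siRNAs no longer kept that order. These shares are estimates that divide reads among overlapping transcripts, and comparisons between siRNAs were not tested.

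**Figure D3:**
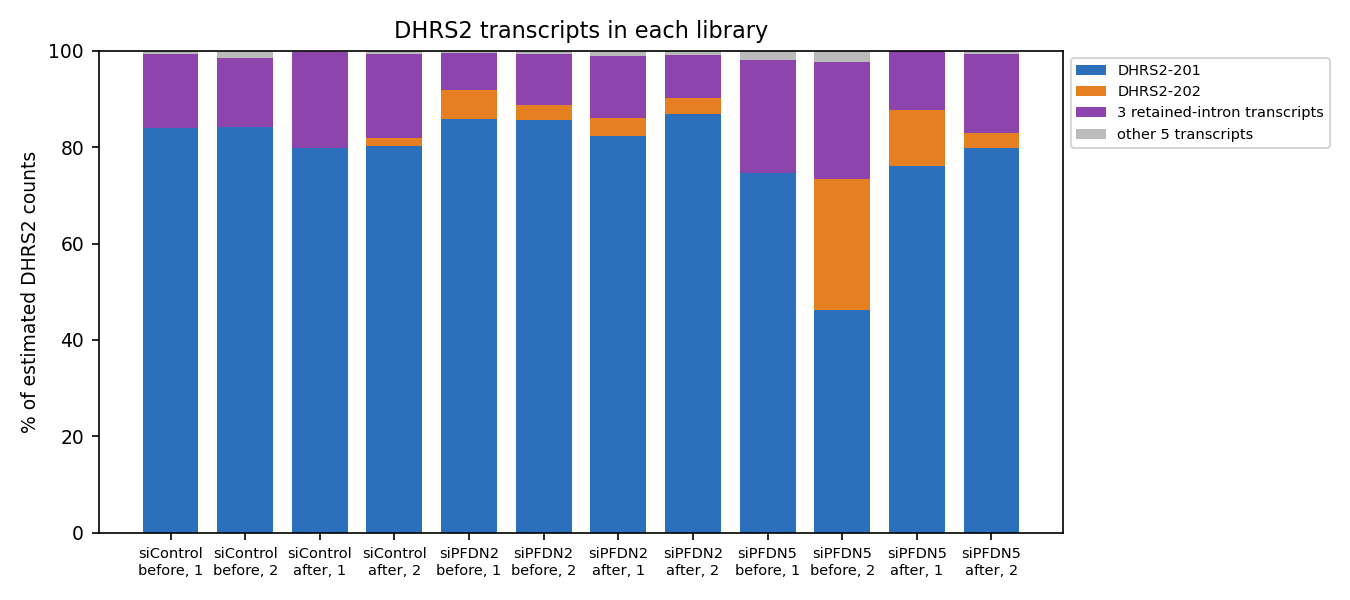
Share of the estimated DHRS2 counts (y axis, percent) held by DHRS2-201, DHRS2-202, the 3 retained-intron transcripts and the other 5 transcripts in each of the 12 libraries (x axis, by siRNA, time relative to serum and replicate). DHRS2-201 is the largest part of every bar, from 46.2% to 86.8%, and DHRS2-202 reaches 27.1% in replicate 2 of siPFDN5 before serum.

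Little of the sequence of DHRS2-201 is shared with other genes. Of its 1675 stretches of 31 bases, 22 (1.31%) also occur in transcripts of 17 other genes. DHRS4, a related gene further along chromosome 14, shares no run longer than 22 bases with it.

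The annotation also has transcripts that start 6220 bases further upstream, at 23630115 (DHRS2-203 and DHRS2-205). They received 0 estimated counts in 10 of the 12 libraries, and 2.01 and 5.21 in replicate 2 of siControl and replicate 1 of siPFDN5 before serum, or 0.230% and 1.90% of the DHRS2 estimate. In these cells nearly all DHRS2 estimates therefore belong to transcripts that begin at or after 23636335. The RefSeq promoter entry for the gene lies at the upstream start. Its 250 bases before that start (GRCh38.p14, chr14:23629865-23630114, plus strand, 43.2% GC) are printed with the TATA box letters in capitals.
DHRS2 promoter, upstream start: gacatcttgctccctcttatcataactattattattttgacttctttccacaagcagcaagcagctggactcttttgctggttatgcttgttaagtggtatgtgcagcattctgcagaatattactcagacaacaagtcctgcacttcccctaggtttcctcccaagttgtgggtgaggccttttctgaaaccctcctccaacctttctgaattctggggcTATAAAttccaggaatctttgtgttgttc

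TATAAA begins at position -29 from the start and occurs, on either strand, in 10.7% of 35116 RefSeq promoter windows of this length. Letters searched for MYB (AACNG, in 70.6% of windows), AP-1 (TGANTCA, 6.57%), Sp1 (GGGCGG, 42.6%) and NF-Y (CCAAT, 32.0%) had 0 matches on either strand, which says only that they are not in this window. The start to which nearly all estimates were assigned is 6220 bases away, and its upstream sequence was not used here.

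The place of DHRS2 among all genes was described by asking which genes keep the same order without overlap, siPFDN5 below siControl below siPFDN2, in both the before-serum and the after-serum libraries. DHRS2 was chosen for this order, so its own place is no finding. Of 27915 genes, 26 (0.0931%) had it, and 90 (0.322%) had the reverse order. With each step between group means at least 25%, 3 genes remained in the DHRS2 order. They were DHRS2 (smallest step 1.67-fold), the long non-coding RNA AC009902.3 (1.30-fold, at 0.0491 to 0.168 CPM) and GNB3 (1.28-fold), a G protein beta subunit.

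GNB3, on chromosome 12 from 6839954 to 6847393, averaged 3.14 ± 0.671 CPM (SD, n = 2) with siControl, 5.10 ± 1.91 (SD, n = 2) with siPFDN2 and 2.30 ± 0.303 (SD, n = 2) with siPFDN5 before serum. After serum its means were 1.92 ± 0.0869, 2.45 ± 0.0928 and 1.48 ± 0.243 CPM (SD, n = 2). It overlaps 1 other gene, so its counts may include reads of that gene.

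In the reverse order, with the same steps, there were 7 genes. They include PFDN2 itself (smallest step 1.41-fold), the sulfatase gene SULF2 (1.28-fold) with the antisense RNA AL354813.1 inside it (1.38-fold), the brush-border myosin gene MYO1A (1.51-fold) and PLVAP (1.27-fold), an endothelial vesicle diaphragm protein. MYO1A and the remaining members, AC105046.1 and AC026120.1, stood under 0.4 CPM in every group mean. SULF2 and AL354813.1 share reads in unstranded counts and cannot be told apart there. Without replicate 2 of siPFDN2 before serum, 75 genes had the DHRS2 order, of which 4 had steps of at least 25% and DHRS2 was still the 1 gene with steps of at least 1.5-fold. Before serum alone, 1313 genes (4.70%) had the order, and 36 of them with steps of at least 1.5-fold.

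Likeness over all libraries was measured as Pearson's r with DHRS2 of log2 CPM over the 12 libraries, among the 2152 genes whose log2 CPM averaged 1 or more and whose group means spanned 1 log2 unit or more. The points share library and depth, and r is a description. Among the 5 genes with the highest r were ADM5, a gene of the adrenomedullin family (0.850), DUS1L, a tRNA dihydrouridine synthase (0.844), SNORD3A, the U3 small nucleolar RNA (0.839), and PSKH1, a serine kinase (0.793). The number of genes that reached 0.9 was 0.

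DUS1L averaged 57.4 ± 5.37, 89.1 ± 34.5 and 39.6 ± 0.751 CPM (SD, n = 2) with siControl, siPFDN2 and siPFDN5 before serum. After serum it averaged 52.4 ± 8.63, 61.6 ± 0.0786 and 51.4 ± 0.912 CPM (SD, n = 2). The siPFDN2 replicates of DUS1L before serum were far apart, which they were not for DHRS2.

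These leading genes depended on replicate 2 of siPFDN2 before serum. Without it, DUS1L and ADM5 were the only 2 still among the first 5, beside PLEKHH3, NOXO1 and RNY1. With each library's GC trend removed, ADM5 was the only 1 still there.

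The lowest r values were more extreme, with 7 genes at or below -0.9. Among the 5 lowest were CTHRC1, which encodes a secreted collagen-repeat protein (-0.924), CREBRF, a regulator of CREB3 (-0.919), TP53INP1, a p53 target that acts in autophagy and cell death (-0.915), and TMTC1, a mannosyltransferase (-0.912). CTHRC1 averaged 5.18 ± 0.141, 3.08 ± 0.381 and 6.59 ± 0.480 CPM (SD, n = 2) with siControl, siPFDN2 and siPFDN5 before serum, the reverse of the DHRS2 order. After serum it averaged 5.69 ± 0.0700, 4.19 ± 0.261 and 6.18 ± 0.291 CPM (SD, n = 2). TP53INP1 averaged 63.7 ± 1.71, 41.3 ± 17.3 and 89.3 ± 0.447 CPM (SD, n = 2) before serum, again highest where DHRS2 was lowest.

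Genes related to DHRS2 by name, enzyme activity, reported partners or reported inducers were examined as 5 lists, together with its neighbours on the chromosome. No member of any list passed the test in a knockdown against siControl, where few genes passed at all. In the whole table siPFDN2 called 0% of genes before serum and 0% after it, and siPFDN5 called 0.00716% and 0.00358%. At an unadjusted edgeR p under 0.05, 3156 and 1747 genes (11.3% and 6.26%) passed for siPFDN2 before and after serum, and 3432 and 6032 (12.3% and 21.6%) for siPFDN5. DESeq2 called 27 and 2 genes (0.0967% and 0.00716%) for siPFDN2, and 328 and 1911 (1.17% and 6.85%) for siPFDN5. In siPFDN5 against siPFDN2 the called share was 0.0788% before serum (0.0681% higher, 0.0107% lower), with no list member, and 0.0179% after it, with 1. Before serum in that comparison, DESeq2 called 3 DHRS-named relatives, 2 carbonyl-reducing genes, 3 of the MDM2, p53 and MYB list, 1 HDAC-related gene, 2 oxidative stress genes and 2 neighbours, where it called 13.8% of all genes. An unadjusted edgeR p under 0.05 was found there for 5, 5, 4, 1, 2 and 3 of them, and for 29% of all genes. Of 31 calls of list members over all comparisons, 26 were lost under at least 1 alternative setting or left-out library.

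Of the 12 DHRS-named relatives, all tested, 0 passed in any comparison between siRNAs. At an unadjusted edgeR p under 0.05 there were 3 in siPFDN2 and 1 in siPFDN5 against siControl before serum, and 1 and 2 after it, and DESeq2 called 0 in each. Among all genes the unadjusted shares were 11.3%, 12.3%, 6.26% and 21.6% in that order. Their median log2 fold change before serum was 0.18 for siPFDN2 and 0.02 for siPFDN5, against -0.01 and 0.01 over all genes, where DHRS2 had 1.49 and -1.13. In siPFDN5 against siPFDN2 before serum the median was -0.31, against 0.04 over all genes. The 3 relatives that DESeq2 called in that comparison were all lower, where it called 13.8% of all genes. The siPFDN2 replicates disagreed there: DHRSX stood at 36.7 and 53.6 CPM in replicates 1 and 2. DHRS4L1 went the other way, at 0.370 and 0.319 CPM.

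By edgeR, the relative that lay closest to the call in siPFDN5 against siPFDN2 before serum was DHRS13. It stood at 8.99 and 8.72 CPM with siControl, 8.99 and 12.8 with siPFDN2, and 5.96 and 6.38 with siPFDN5 before serum. Its log2 fold change of siPFDN5 against siPFDN2 was -0.82 (SE 0.20; edgeR adjusted p = 0.0587), and after serum it was -0.08 (SE 0.19; edgeR adjusted p = 0.966). DHRS4, the carbonyl reductase related to DHRS2 and named here outside the rule for gene names, stood at 5.58 and 5.12 CPM with siControl, 5.19 and 8.22 with siPFDN2, and 4.71 and 5.09 with siPFDN5 before serum. Those groups overlap, and its log2 fold changes were 0.33 (SE 0.21) for siPFDN2 and -0.13 (SE 0.22) for siPFDN5. DHRS4L1 is a pseudogene copy of DHRS4 and its reads are uncertain.

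In the serum comparisons 1 relative rose, DHRS9, a retinol dehydrogenase. Its log2 fold change was 1.97 (SE 0.45; edgeR adjusted p = 0.0410) with siControl and 2.16 (SE 0.51; edgeR adjusted p = 0.0444) with siPFDN2. On average it was 1.91 (SE 0.28; edgeR adjusted p = 0.00107), and DESeq2 also called 1 relative on average. With siControl and with siPFDN2 DESeq2 called 0 relatives, and both DHRS9 calls were lost with a replicate block (edgeR adjusted p = 0.0595 and 0.0579). The gene is near the floor, at 0.0468 to 0.0538 CPM before serum and 0.191 to 0.208 CPM after it with siControl. With siPFDN5, DHRS4L1 fell by 1.13 (SE 0.34; edgeR adjusted p = 0.04998), just inside the threshold. The called shares of all genes were 2.87% with siControl, 3.26% with siPFDN2, 12.2% with siPFDN5 and 14.9% on average. Without replicate 2 of siPFDN2 before serum, 3 relatives were called higher and 1 lower with siPFDN5, where 36.3% of all genes were called.

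**Figure D4:**
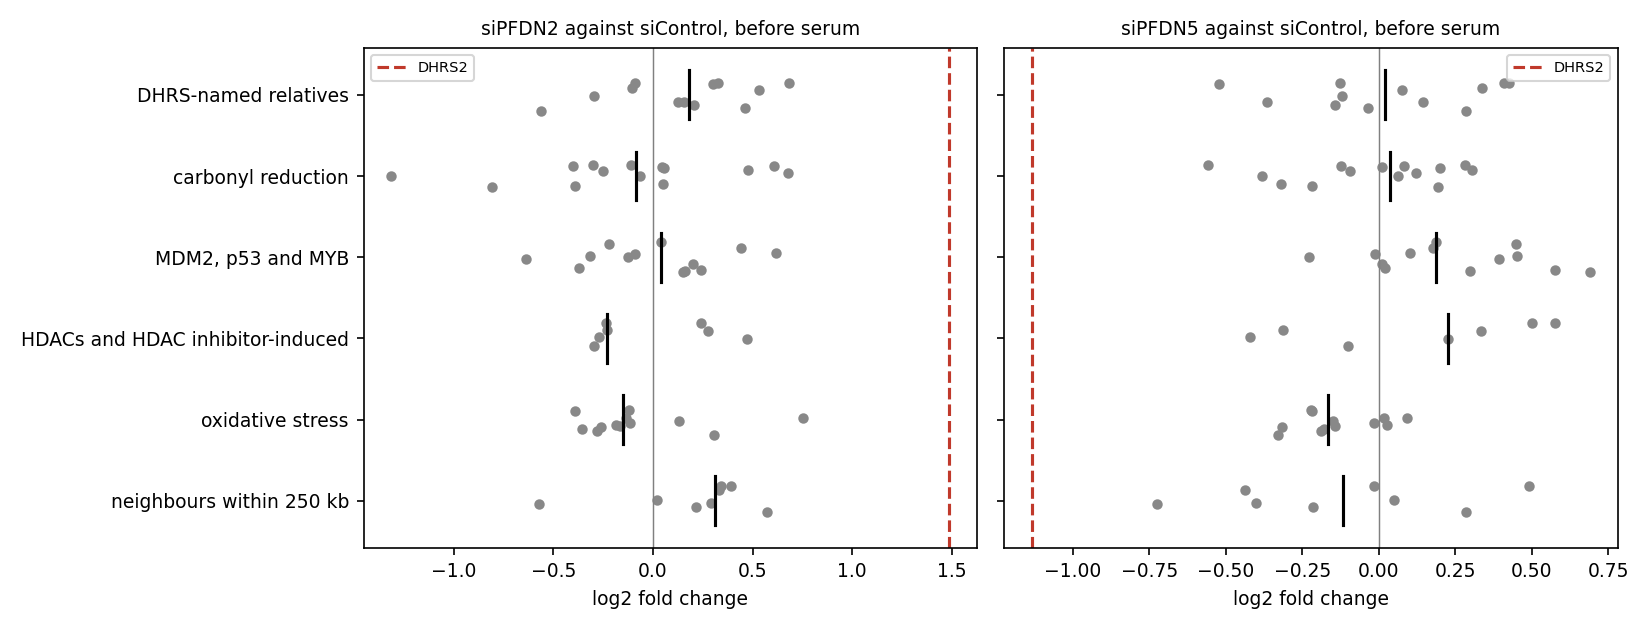
Log2 fold change (x axis) of each tested gene of 5 lists and of the tested neighbours of DHRS2, for siPFDN2 (left) and siPFDN5 (right) against siControl before serum; grey points are genes, black bars are list medians and the dashed red line is DHRS2 (1.49 at left, -1.13 at right). Every plotted gene lies nearer to 0 than DHRS2 in its direction in both panels.

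Of 15 carbonyl-reducing and glyoxalase genes, 14 were tested, and 0 passed between siRNAs. An unadjusted edgeR p under 0.05 was found for 5 in siPFDN2 and 2 in siPFDN5 against siControl before serum, and DESeq2 called 0 in both. After serum there were 0 and 4, and DESeq2 called 0 and 1. Of all genes 11.3% and 12.3% had such a p before serum, and 6.26% and 21.6% after it. Before serum the list medians were -0.09 for siPFDN2 and 0.04 for siPFDN5. With serum, 3 rose with siPFDN5: AKR1B1, aldose reductase, by 0.63 (SE 0.17; edgeR adjusted p = 0.0387), PARK7, which encodes the redox-sensitive protein DJ-1, by 0.52 (SE 0.13; adjusted p = 0.0285), and AKR1A1, an aldehyde reductase, by 0.49 (SE 0.14; adjusted p = 0.0498). PARK7 also rose on average, by 0.25 (SE 0.07; edgeR adjusted p = 0.0429). By the same test 5.72% of all genes rose with serum under siPFDN5 and 7.6% on average.

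The list around MDM2, p53 and MYB had 13 members, all tested. HCT116 carries normal p53. Against siControl 0 passed with either knockdown. At an unadjusted edgeR p under 0.05 there were 1 with siPFDN2 and 3 with siPFDN5 before serum, and 0 and 8 after it, where all genes gave 11.3% and 12.3%, and 6.26% and 21.6%. DESeq2 called 0 with either before serum, and 0 and 3 after it, where it called 6.85% of all genes with siPFDN5. The medians with siPFDN5 were 0.19 before serum and 0.54 after it, against 0.01 and -0.04 over all genes, and those with siPFDN2 were 0.04 and -0.09.

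In siPFDN5 against siPFDN2 after serum, 1 member was called: TP53I3, a p53 target that encodes a quinone oxidoreductase, with a log2 fold change of 1.29 (SE 0.16; edgeR adjusted p = 0.0398). The call was lost in 13 of 23 alternatives: with a replicate block (edgeR adjusted p = 0.0935), with upper-quartile scaling, with library size alone, and on leaving out any 1 library other than those of siPFDN2 before serum. It stood at 27.2 and 26.4 CPM with siPFDN5, 10.8 and 11.1 with siPFDN2, and 12 and 13.5 with siControl. Before serum it stood at 19.2 and 19.3 CPM with siPFDN5, above 15.7 and 12.5 with siControl and 11 and 13.2 with siPFDN2. TP53I3 overlaps 1 other gene. In these libraries it was thus highest where DHRS2 was lowest.

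MYB itself did not follow DHRS2. It stood at 7.13 and 6.43 CPM with siControl, 7.01 and 5.41 with siPFDN2, and 5.81 and 5.77 with siPFDN5 before serum, and the groups of the 2 knockdowns overlap. Its log2 fold change against siControl was -0.13 with siPFDN2 and -0.23 with siPFDN5. With serum, MYB fell on average by 0.45 (SE 0.10; edgeR adjusted p = 0.0167).

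MDM2 stood at 271 and 270 CPM with siControl, 256 and 163 with siPFDN2, and 274 and 275 with siPFDN5 before serum, and its log2 fold change with siPFDN5 was 0.02. With serum it rose on average by 0.59 (SE 0.11; edgeR adjusted p = 0.00416), as did GDF15, a p53-responsive cytokine, by 0.86 (SE 0.14; adjusted p = 0.00238). With siPFDN5 alone, MDM2 rose by 0.82 (SE 0.18; edgeR adjusted p = 0.0216), GDF15 by 0.97 (SE 0.24; adjusted p = 0.0308) and CDKN1A, which encodes the cell cycle inhibitor p21, by 0.57 (SE 0.15; adjusted p = 0.0393). BBC3, which encodes PUMA, fell on average by 0.51 (SE 0.13; edgeR adjusted p = 0.0219), and SESN1 by 0.47 (SE 0.13; adjusted p = 0.0328). So 5 of 13 members moved on average, 2 up and 3 down, where 14.9% of all genes were called. With siPFDN5 12.2% of all genes were called.

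The calls in this list between siRNAs changed when replicate 2 of siPFDN2 before serum was left out. Then 5 members were called higher in siPFDN5 against siControl before serum and 8 higher and 1 lower after it, where 6.96% and 23.9% of all genes were called. In siPFDN5 against siPFDN2, 5 and 8 were called higher, where 3.16% and 4.22% of all genes were called. In siPFDN2 against siControl 0 were called at both times. This fit tests 29034 genes.

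Of 8 HDAC and HDAC inhibitor-induced genes, 7 were tested and 0 passed between siRNAs. Before adjustment, edgeR's p was under 0.05 for 1 in siPFDN2 and 4 in siPFDN5 against siControl before serum, where DESeq2 called 0 in both, and for 1 and 3 after it, where DESeq2 called 0 and 2. The shares of all genes were 11.3% and 12.3% before serum and 6.26% and 21.6% after it. HDAC3 stood at 40.5 and 39.1 CPM with siControl, 51.2 and 59.2 with siPFDN2, and 46.4 and 46.9 with siPFDN5. HDAC8 stood at 15.8 and 18.4, 15.3 and 13.8, and 26.0 and 22.4 CPM. The list holds CDKN1A too, a classical HDAC inhibitor response gene, which stood at 171 and 162 CPM with siControl, 167 and 226 with siPFDN2, and 243 and 253 with siPFDN5 before serum. CDKN1A was highest in the siPFDN5 libraries, where DHRS2 was lowest, but it is 1 gene of the list. The list medians before serum were -0.23 for siPFDN2 and 0.23 for siPFDN5, against -0.01 and 0.01 over all genes. With serum under siPFDN5, 5 of the 7 had an unadjusted edgeR p under 0.05, against 30.7% of all genes. There DESeq2 called 4, against 16.1% of all genes, and edgeR called 1, against 12.2%.

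Of 12 oxidative stress genes, all tested, 0 passed between siRNAs. An unadjusted edgeR p under 0.05 was found for 2 in siPFDN2 and 0 in siPFDN5 against siControl before serum, where DESeq2 called 0 in both, and for 1 and 3 after it, where DESeq2 called 0 and 1. The same shares of all genes apply, 11.3% and 12.3% before serum and 6.26% and 21.6% after it. The list's medians before serum were -0.15 for siPFDN2 and -0.16 for siPFDN5, against -0.01 and 0.01 over all genes. HMOX1, heme oxygenase 1, stood at 10.6 and 8.42 CPM with siControl, 13.1 and 19.1 with siPFDN2, and 9.38 and 9.89 with siPFDN5 before serum. Its log2 fold change was 0.75 (SE 0.20; edgeR adjusted p = 0.442) with siPFDN2, which did not pass, and 0.02 (SE 0.20) with siPFDN5.

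After serum HMOX1 stood at 15.6 and 15.7 CPM with siPFDN2 against 10.02 and 12 with siControl. With serum, NFE2L2, the transcription factor NRF2, rose on average by 0.52 (SE 0.09; edgeR adjusted p = 0.00432), TXNRD1, a thioredoxin reductase, by 0.48 (SE 0.09; adjusted p = 0.00576) and SRXN1, sulfiredoxin, by 0.36 (SE 0.08; adjusted p = 0.0153). NFE2L2 also rose with siPFDN2 (0.70, SE 0.16; edgeR adjusted p = 0.0439). With siPFDN5 SRXN1, TXNRD1 and PRDX1 were called higher. Serum raised 7.6% of all genes on average, 2.06% with siPFDN2 and 5.72% with siPFDN5 by the same test. Without replicate 2 of siPFDN2 before serum, 7 of the 12 were called higher on average, where 27.5% of all genes were called.

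Within 250 kb of DHRS2, 20 other genes are annotated and 8 were tested. They all lie on the low-coordinate side, between 23469688 and 23578800, and several overlap each other, so they are not separate measurements. Between siRNAs 0 passed. At an unadjusted edgeR p under 0.05 there were 0 with either knockdown against siControl before serum, where DESeq2 called 0, and 1 with siPFDN2 and 2 with siPFDN5 after it, where DESeq2 called 0 and 2. Of all genes 6.26% and 21.6% had such a p after serum. Their median before serum was 0.31 with siPFDN2 and -0.12 with siPFDN5, against -0.01 and 0.01 over all genes. In siPFDN2 before serum, replicate 2, which follows GC content, exceeded replicate 1 for every tested neighbour except NGDN. ZFHX2 stood there at 3.09 and 7.17 CPM, against 3.48 and 3.44 with siControl. AL135999.1 stood at 24.6 and 39.8 CPM, against 28.1 and 23.1, while NGDN stood at 27.5 and 22.7, against 24.5 and 24.9.

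AP1G2, an adaptor protein subunit at 23559565 to 23568070, stood at 33.6 and 28.0 CPM with siControl, 29.7 and 45.7 with siPFDN2, and 23.3 in both siPFDN5 libraries before serum. The siPFDN2 and siControl libraries overlap, because the siPFDN2 replicates differ. After serum AP1G2 stood at 20.8 and 26.0, 24.4 and 22.3, and 21.8 and 23.8 CPM, and all 3 siRNAs overlap. AP1G2 thus did not show the separation between siRNAs that DHRS2 showed after serum.

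With serum, NGDN, a neighbour that encodes the translation regulator neuroguidin, rose on average by 0.36 (SE 0.08; edgeR adjusted p = 0.0143) and ZFHX2, a zinc-finger homeobox gene, fell by 0.82 (SE 0.22; adjusted p = 0.0286). ZFHX2-AS1, AL135999.1 and AL135999.2, antisense or overlapping transcripts in the same stretch, also fell, by 0.37, 0.42 and 1.52 (edgeR adjusted p = 0.0452, 0.0469 and 0.0185). With siPFDN5, NGDN rose by 0.59 (SE 0.14; edgeR adjusted p = 0.0265) and ZFHX2 fell by 1.43 (SE 0.38; adjusted p = 0.0378). By the same test serum called 14.9% of all genes on average and 12.2% with siPFDN5. Because counting ignored strand, the reads of ZFHX2 and its antisense partner cannot be told apart. With siControl and siPFDN2 0 neighbours were called by edgeR, 1 and 7 had an unadjusted p under 0.05, and DESeq2 called 0 and 4. Among all genes those shares were 12.4% and 28% unadjusted, and 4.31% and 11.2% with DESeq2.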

How the data were processed

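The authors deposited gene counts in 2 tables, one over gene bodies with introns and one over exons. Per the file headers they came from featureCounts 1.5.2 on Ensembl release 87 of GRCh38, with both ends mapped; fragments touching more than 1 gene counted towards every such gene, and strand was ignored. The deposited per-library files carry TPM in their names but hold estimated counts per transcript. The submitters' processing notes name HISAT2 0.12.2, kallisto 0.43 and GRCh38.p7, without a role. The 6 further columns of per-sample values that match no sample label were not used.

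Groups were read from the sample titles and the siRNA and treatment labels. Gene-body counts were fitted with edgeR 4.0.16 in R 4.3.3: genes kept by filterByExpr, TMM scaling, 1 model of 6 group means over 12 libraries, robust quasi-likelihood tests and Benjamini-Hochberg adjustment over 27915 genes, two-sided. CPM is relative to the TMM-scaled total, and the log2 scale used a prior count of 2. SE was derived from the fold change and test statistic. Genes were matched to GENCODE release 29 (57447 of 58051), which also gave positions, exons, GC content and transcript sequences. Of 173259 transcripts, 159239 matched a gene. Intervals are Wilson 95% intervals. Shares were tested by exact permutation with SciPy 1.17.1. The fitting script was tested on simulated data.

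DHRS2, the lists and the tests were chosen with earlier results of these data known. Genes named are DHRS2, the targeted genes, list members called in a comparison or among the 3 with the largest change of siPFDN5 against siPFDN2 before serum, tested neighbours within 250 kb, genes among the 5 most and 5 least alike (1 of each is not reported here), and genes in the DHRS2 order or its reverse with steps of at least 1.25-fold. Any other gene named was chosen after its values were seen. Alternatives were other scalings, DESeq2 1.42.0 (limma 3.58.1 supplied functions used by edgeR), no filter, exon counts, rounded transcript sums, a GC offset, a replicate block, only the compared libraries, and leaving out each library. The average over siControl and siPFDN2 only, and the order and likeness with other libraries or GC settings, were added after seeing the data.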

Additional observations from a re-analysis of the deposited data

Results flagged for a closer look

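The serum response of DHRS2 with siPFDN2 went the opposite way to that with siControl and to that with siPFDN5. Its log2 fold change from before serum to after it was 0.19 with siControl, 0.58 with siPFDN5 and -0.52 with siPFDN2. The difference was not tested, because it is made of the comparisons between siRNAs that chose the gene, and none of the 3 responses passed the adjusted threshold on its own. PFDN5 was not clearly lowered in the libraries labelled siPFDN5 after serum, and replicate 2 of siPFDN2 before serum stands apart from its partner. Without that replicate the siPFDN2 response was -0.37 and the siPFDN5 response 0.59.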

How the results depend on the processing

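All 6 DHRS2 differences between siRNAs kept their direction in 23 of 23 alternatives. These comparisons chose the gene, and the alternatives reuse the same libraries, which did not overlap between siRNAs. A kept direction was therefore likely from the start and is only a description. Leaving out 1 library at a time gave 1.35 to 1.62 before serum and 0.52 to 1.03 after it for siPFDN2 against siControl. It gave -1.27 to -0.996 and -0.75 to -0.69 for siPFDN5 against siControl, and -2.74 to -2.48 and -1.74 to -1.25 for siPFDN5 against siPFDN2. Sums of transcript estimates gave -0.92 for siPFDN5 against siControl before serum, -2.36 for siPFDN5 against siPFDN2 before serum, and 0.16 for the serum response of siPFDN5 minus that of siControl. For siPFDN5 against siControl after serum, library size alone gave -0.90 and exon counts gave -0.84. The cause of these shifts was not tested.

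The serum response with siPFDN5 passed with DESeq2 (0.60, adjusted p = 0.0449), with GC removed (0.58, edgeR adjusted p = 0.0221) and with only the compared libraries (0.57, edgeR adjusted p = 0.000673). Like the main values, these p-values are not free of the choice of the gene. The serum response with siPFDN5 ran from 0.58 to 0.63 over left-out libraries. That with siPFDN2 ran from -0.78 to -0.28 over left-out libraries, and that with siControl from 0.05 to 0.32. The averaged response turned to -0.056 with library size alone and to -0.16 over siControl and siPFDN2 only (edgeR adjusted p = 0.446), and ran from -0.0023 to 0.17 over left-out libraries. The exonic share difference ran from 0.450 to 1.22 percentage points and the main transcript share difference from -0.615 to 8.86 points over left-out libraries.

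Replicate numbers are shared between groups, but same-numbered libraries deviated together in only 4 of 15 pairs of groups (r from -0.322 to 0.592), so the numbers were not taken to pair libraries. With a replicate block the serum responses were 0.19, -0.52, 0.58 and, averaged, 0.08, and siPFDN5 against siPFDN2 before serum was -2.61, which changed no call of DHRS2. Of 31 calls of list members, 22 kept their call under the block and 9 lost it: DHRS9 with siControl and with siPFDN2, NFE2L2 with siPFDN2, AKR1A1 and PRDX1 with siPFDN5, PARK7, ZFHX2-AS1 and AL135999.1 on average, and TP53I3. DHRS4L1 on average was gained. Over all alternatives 5 of the 31 were never lost: DHRS9, MDM2, GDF15, NFE2L2 and TXNRD1 on average. With the block and GC removed together, the siPFDN5 serum response was 0.58 (edgeR adjusted p = 0.0304).

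Counts of called genes depended strongly on the setting. Against 800, 910, 3407 and 4163 genes called for serum with siControl, siPFDN2, siPFDN5 and on average, alternatives gave 275 to 2889, 37 to 14264, 251 to 13741 and 1673 to 13863. Against 0 and 0 for siPFDN2 and 2 and 1 for siPFDN5 against siControl before and after serum, they gave 0 to 12252, 0 to 256, 0 to 5014 and 0 to 6936. Against 22 and 5 for siPFDN5 against siPFDN2, they gave 0 to 14051 and 0 to 5661. The intronic signal of DHRS2 rests on 5 to 45 counts a library.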
